A study of Mus musculus with 4 samples.

Results

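The genes Abca3, Lamp3, Slc34a2, Lpcat1, Napsa, Etv5, Cxcl15 and Lyz2 were taken by name from the count tables of 4 mouse lung sections, as 8 of the 32285 genes in each table. All 8 were listed in every table and had UMIs in every section, and all 8 passed the filter on low counts in every comparison. The sections came from 2 vaped (V) and 2 non-vaped (NV) C57BL/6J mice, 1 male and 1 female in each group. V mice inhaled an aerosol of Peach Ice flavored vape juice (70VG/30PG), produced by JUUL pens, in whole-body chambers. Exposure lasted 9 weeks (5 days a week, 4 h a day), from an age of about 8 weeks. NV mice were kept without vaping. The paper states no nicotine content of the juice, and its name for the V group gives a percentage without saying of what. Cryosections were placed on Visium slides, where each spot captures the polyadenylated RNA of the tissue above it and each captured molecule carries a unique molecular identifier (UMI). The question put to the counts was how transcripts of the alveolar type 2 cell were distributed over the lung and whether their levels differed between V and NV.

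Type 2 cells line the alveoli between the flat type 1 cells, make pulmonary surfactant and serve as progenitors of the alveolar epithelium. Surfactant is stored as packed lipid membranes in lamellar bodies and released into the airspace, where the type 2 cell also takes it up again. Abca3 transports phospholipid into the lamellar body, Lamp3 (also DC-LAMP) sits in the lamellar body membrane, and Lpcat1 makes the dipalmitoyl phosphatidylcholine of surfactant. Napsa is an aspartic protease that processes the surfactant protein precursors. Slc34a2 takes up the phosphate set free from surfactant phospholipid. Etv5 is an ETS transcription factor of type 2 cell identity, Cxcl15 (lungkine) is a chemokine secreted by lung epithelium, and Lyz2 encodes lysozyme, which type 2 cells share with macrophages and neutrophils. Sftpc, the surfactant protein C gene, served as the reference for the type 2 cell.

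Coordinates are given on GRCm38 (mm10), and all members are annotated as protein coding. Abca3 lies at chr17:24351950-24410201 on the plus strand, Lamp3 at chr16:19653378-19706375 on the minus strand, and Lpcat1 at chr13:73467197-73516422 on the plus strand. Napsa lies at chr7:44572380-44586862 on the plus strand, Slc34a2 at chr5:53038081-53071664 on the plus strand, and Etv5 at chr16:22381309-22439719 on the minus strand. Cxcl15 lies at chr5:90794534-90803067 on the plus strand. Lyz2, at chr10:117277331-117282321, has a related copy, Lyz1, at chr10:117287797-117292868, on the same minus strand and 5475 bases away. Of the 50-base windows of the Lyz2 transcript, 15.4% also occurred in the Lyz1 transcript, and of the 90-base windows 3.59%. The assignment of some reads between the 2 genes is therefore uncertain, less so for longer reads.

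RefSeq promoters (GRCm38.p6, 250 bases before to 50 bases after the start) were matched by symbol for 7 of the 8 members. The promoters of Lyz2 and Lyz1 are shown because the copies lie side by side and share sequence, and that of Cxcl15 because it had the largest difference among the members. In the Lyz pair capitals mark bases that differ between the copies in a global alignment, in which 83.6% of aligned base pairs were identical. Of the 51 capitals in either copy, 50 lay before the start. In Cxcl15 capitals mark CTCAAG, a core motif of the lung factor NKX2-1.
Lyz2 (chr10:117282223-117282522, minus strand): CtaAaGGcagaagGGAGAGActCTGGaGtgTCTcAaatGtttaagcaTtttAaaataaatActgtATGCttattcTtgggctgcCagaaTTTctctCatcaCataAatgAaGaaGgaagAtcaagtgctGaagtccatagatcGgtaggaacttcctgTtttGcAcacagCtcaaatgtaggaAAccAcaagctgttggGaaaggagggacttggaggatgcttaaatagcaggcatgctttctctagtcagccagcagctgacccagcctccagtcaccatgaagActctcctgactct
Lyz1 (chr10:117292819-117293118, minus strand): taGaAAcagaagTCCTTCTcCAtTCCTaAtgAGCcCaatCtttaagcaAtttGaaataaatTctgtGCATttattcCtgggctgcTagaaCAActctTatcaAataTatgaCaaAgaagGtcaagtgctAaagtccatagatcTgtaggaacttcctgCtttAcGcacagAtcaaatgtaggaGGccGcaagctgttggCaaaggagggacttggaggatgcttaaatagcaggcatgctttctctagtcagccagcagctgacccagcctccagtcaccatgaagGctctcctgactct
Cxcl15 (chr5:90794284-90794583, plus strand): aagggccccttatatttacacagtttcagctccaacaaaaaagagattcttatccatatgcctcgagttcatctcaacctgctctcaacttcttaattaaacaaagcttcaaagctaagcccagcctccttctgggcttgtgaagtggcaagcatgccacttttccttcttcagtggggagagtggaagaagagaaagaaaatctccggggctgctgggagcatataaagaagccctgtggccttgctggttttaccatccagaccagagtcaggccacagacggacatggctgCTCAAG

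The CTCAAG match in Cxcl15 starts 45 bases after the start of the transcript. Searched on both strands, CTCAAG occurred in the promoter of 1 of the 7 members and in 15.9% of all 32851 promoters. CAAGTG, a second NKX2-1 core that overlaps CTCAAG by 4 bases where both are read as one run, occurred in 1 of 7 (Lyz2) and in 13.6% of all promoters. The C/EBP motif TTGCNNAA occurred in 1 of 7 (Slc34a2, against 10.8% of all), and the ETS motif CCGGAAG in 0 of 7 (8.86% of all). These matches are descriptions of the letters in these windows.

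Together the sections held 4933 spots and between 6957392 and 34308556 UMIs each. A spot was called alveolar where 12 markers of type 1 cells and capillaries, among them Ager, Hopx, Ednrb and Car4, reached 50% of their level over all spots, so that no type 2 gene entered the choice. This gave 4232 alveolar spots, 663 and 353 from the male and female NV mice and 1562 and 1654 from the male and female V mice, with a median of 6261 to 10038 UMIs per alveolar spot. The labels name the tissue as upper pulmonary branches, whereas 74.6% to 99.8% of the spots of a section were alveolar by this rule. The section of the V male held 3 spots outside the alveolar region and no cardiac muscle spots, and the other sections held 120 to 399 spots outside it. Sections shared 277 to 1167 spot barcodes, which are positions on the slide. Levels are given as CPM, the UMIs of a gene scaled to a common total of UMIs in the same spots. Visium counts molecules from their 3′ end, so levels are not divided by transcript length.

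All 8 members were higher in alveolar spots than in the remaining spots of the same section, in each of the 3 sections that held both, and all 8 passed the test. Across all genes, 19.5% of 13492 were called higher in alveolar spots and 23.1% lower. Sections were entered as blocks in edgeR's quasi-likelihood test, and calls needed a log2 fold change beyond 0.25 in either direction and a p under 0.05 after Benjamini-Hochberg adjustment over all genes. The median log2 fold change was 1.57 over the members and 0.03 over all genes tested. Without TMM scaling the medians moved to 2.01 and 0.47, and 7240 genes were called higher and 1836 lower, in place of 2636 and 3120, with all 8 members still higher. With alveolar spots held to 100% of the marker level, the median over the members was 0.80 (Abca3 0.58, Cxcl15 0.84), and all 8 were still called.

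Cxcl15 was counted at 1926 CPM in alveolar and 395 CPM in other spots of the male NV mouse, at 1726 and 290 CPM in those of the female NV mouse, and at 1137 and 235 CPM in those of the female V mouse. The 2 regions did not overlap, and the log2 fold change was 1.93 (SE 0.12, edgeR adjusted p = 3.2e-06).
In the same order of sections Lamp3 reached 402, 455 and 352 CPM in alveolar spots and 88.1, 80.0 and 80.5 CPM in other spots. Its level outside the alveolar region was nearly the same in the 3 mice, with a log2 fold change of 1.83 (SE 0.12) between regions. Slc34a2 reached 920, 1042 and 944 CPM in alveolar spots and 203, 187 and 196 CPM in other spots (log2 fold change 1.87, SE 0.12).
Of the members Abca3 had the smallest difference between regions. It reached 273, 273 and 233 CPM in alveolar spots and 82.8, 88.3 and 74.8 CPM in other spots, with a log2 fold change of 1.22 (SE 0.10). Lpcat1 (1.56), Napsa (1.58) and Etv5 (1.41) lay between these values, as did Lyz2 at 1.39 (SE 0.12).

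The level outside the alveolar region was 30.3% to 32.4% of the alveolar level for Abca3, 27.3% to 29.1% for Lyz2 and 16.2% to 20.1% for Sftpc. Lamp3, Slc34a2 and Cxcl15 lay near Sftpc, with 16.8% to 22.9%. The plot of both regions by section shows that the gap was present in each mouse.

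**Figure D1:**
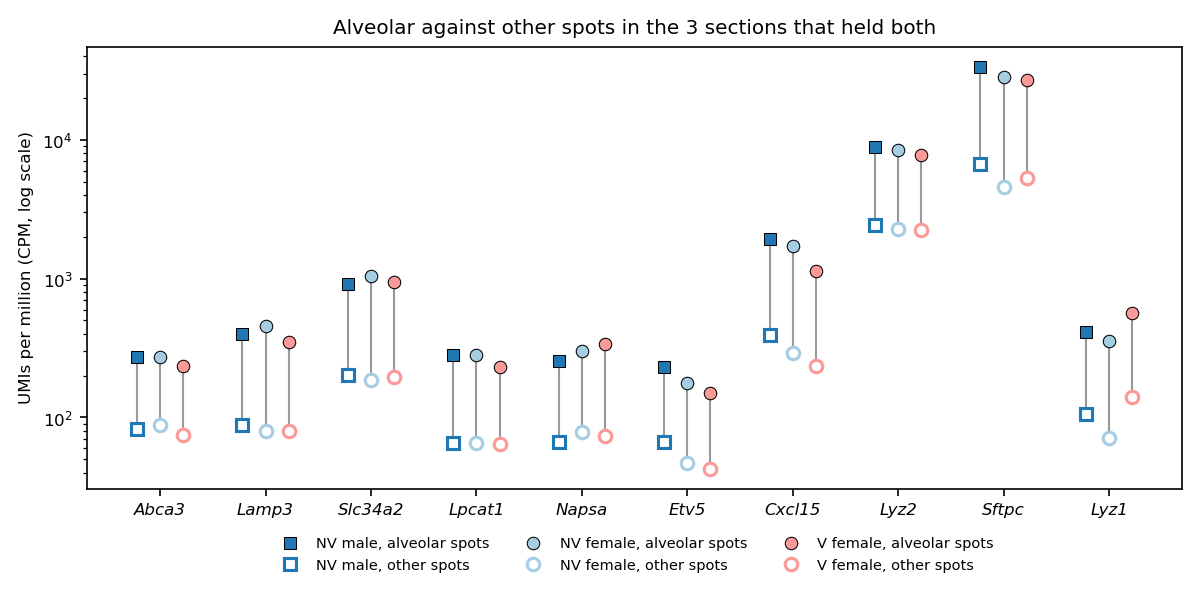
CPM (log axis) of the 8 members, Sftpc and Lyz1 in alveolar spots (filled) and other spots (open) of both NV mice and the female V mouse, joined by a line within a section. Every filled point lies above its open partner, by 3.09-fold (Abca3, NV female) to 6.19-fold (Sftpc, NV female).

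Within the alveolar region the level of each member was positively correlated with that of Sftpc from spot to spot. Over the 663, 353, 1562 and 1654 alveolar spots, Spearman's rho between the CPM of a member and of Sftpc was positive in each section for each member, from 0.16 (Etv5, V male) to 0.72 (Lyz2, V female). Spots of 1 section share a library and differ in depth, so rho is given as a description. Averaged over the sections, rho was 0.70 for Lyz2, 0.56 for Cxcl15, 0.53 for Slc34a2, 0.32 for Lamp3, 0.31 for Napsa, 0.30 for Lpcat1, 0.27 for Abca3 and 0.25 for Etv5.
Among 6385 genes with a mean of at least 0.2 UMIs per alveolar spot in each section, these values ranked 2, 4, 5, 14, 16, 17, 19 and 23, whereas the median gene had a rho of 0.04. The 10 genes most like Sftpc were Sftpb, Lyz2, Sftpa1, Cxcl15, Slc34a2, Cbr2, Sftpd, Wfdc2, Chil1 and Npc2, so 3 members stood among the surfactant protein genes. Lyz1 ranked 26, with a mean rho of 0.23.

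The size of rho moved with the number of UMIs per spot. When each spot was thinned to 3000 UMIs, mean rho was 0.61 for Lyz2, 0.41 for Cxcl15, 0.39 for Slc34a2, 0.22 for Lamp3 and 0.13 for Abca3 and for Etv5. The CPM of Sftpc itself had a rho of 0.05 to 0.27 with the UMI total of a spot, and that of Slc34a2 0.12 to 0.40. For 2 members rho with depth was as high as that with Sftpc in 1 section, namely Abca3 in the NV male (0.314 with depth, 0.310 with Sftpc) and Etv5 in the NV female (0.230 and 0.222). At 1000 UMIs per spot 1 value of a member and section fell below 0 (-0.00729). For all 8 members rho with Sftpc was lowest in the V male, whose alveolar spots had the lowest median UMI count.

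Ordered by Sftpc, the quintile of alveolar spots with the highest Sftpc level exceeded the lowest quintile in every member and section. Slc34a2 was 1.996-fold (male) and 3.21-fold (female) higher in NV and 2.03-fold (male) and 3.06-fold (female) higher in V. Lamp3 was 1.57-fold (V male) to 2.38-fold (V female) higher and Abca3 1.69-fold to 1.96-fold, beside 2.17-fold to 3.12-fold for Sftpc, which set the order. From quintile to quintile, 7 members increased at each step in all 4 sections, and Abca3 in 2 of 4. The summed type 1 markers changed by 0.79-fold to 1.27-fold between the same quintiles, and the fibroblast list by 0.45-fold to 0.92-fold.

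**Figure D2:**
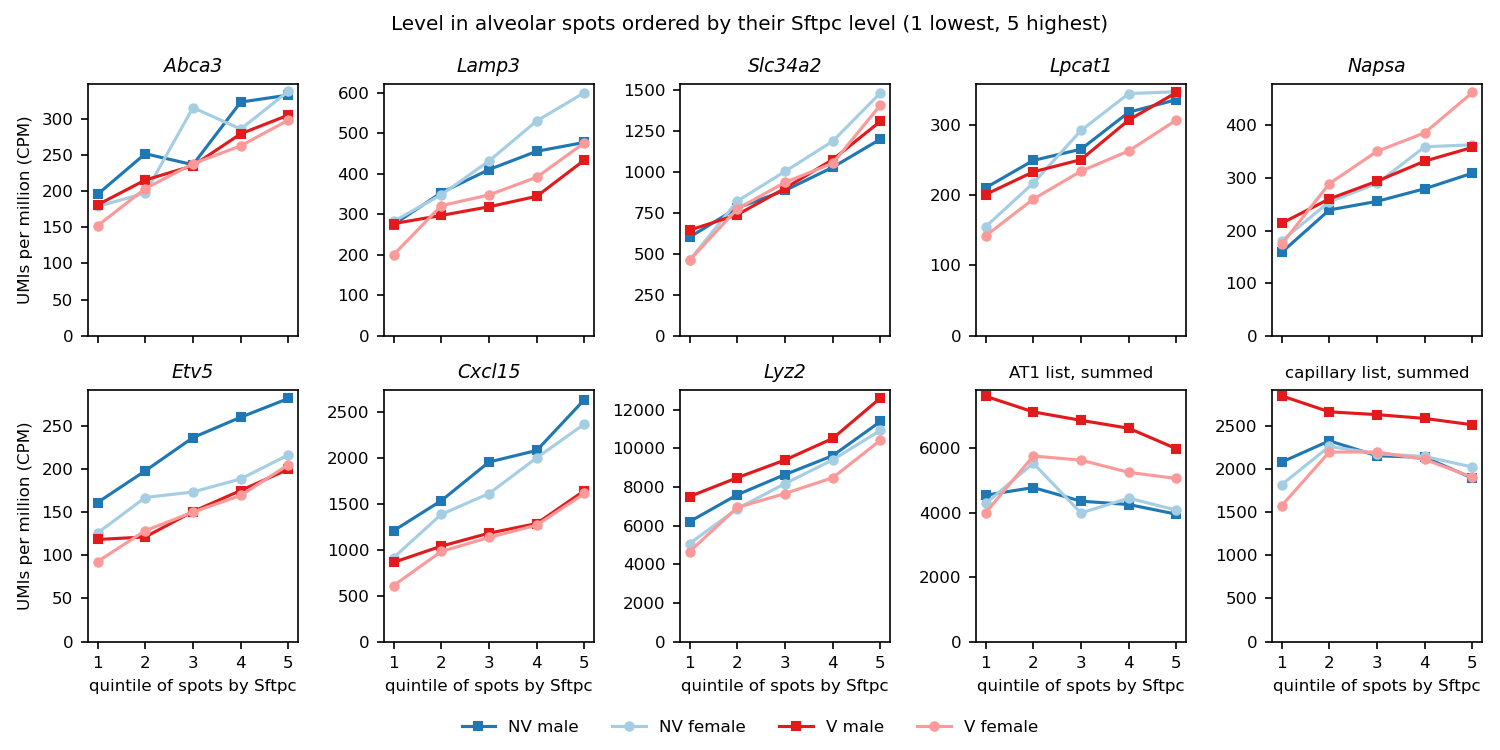
CPM of each member, and of the summed type 1 (AT1) and capillary marker lists, in quintiles of the alveolar spots of each section ordered by Sftpc level (1 lowest, 5 highest). Every member is higher in quintile 5 than in quintile 1 in all 4 sections, and for Cxcl15 and Etv5 both V lines lie below both NV lines in all 5 quintiles.

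Averaged over the sections, rho with the marker lists of other cells lay between -0.11 and 0.13. In single sections it ranged wider, from -0.25 (Lyz2 with the type 1 list, V male) and -0.24 (Slc34a2 with fibroblasts, NV female) to 0.19 (Napsa with alveolar macrophages, NV female), and these sizes exceed the lowest rho with Sftpc. Lyz2, although shared with macrophages, had a mean rho of 0.13 with the alveolar macrophage list (Chil3, Mrc1, Marco and others), 0.05 with other macrophages and monocytes and 0.06 with neutrophils. Lamp3, which also marks mature dendritic cells, had a mean rho of -0.02 with that list (Ccr7, Ccl22, Fscn1 and Ccl17). Cxcl15 had a mean rho of -0.00 with the club cell list, between -0.08 in the V female and 0.10 in the V male.
Between members, rho was highest for Cxcl15 with Lyz2 (mean 0.49) and for Slc34a2 with Lyz2 (0.46), and lowest for Abca3 with Lamp3 (0.10).

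**Figure D3:**
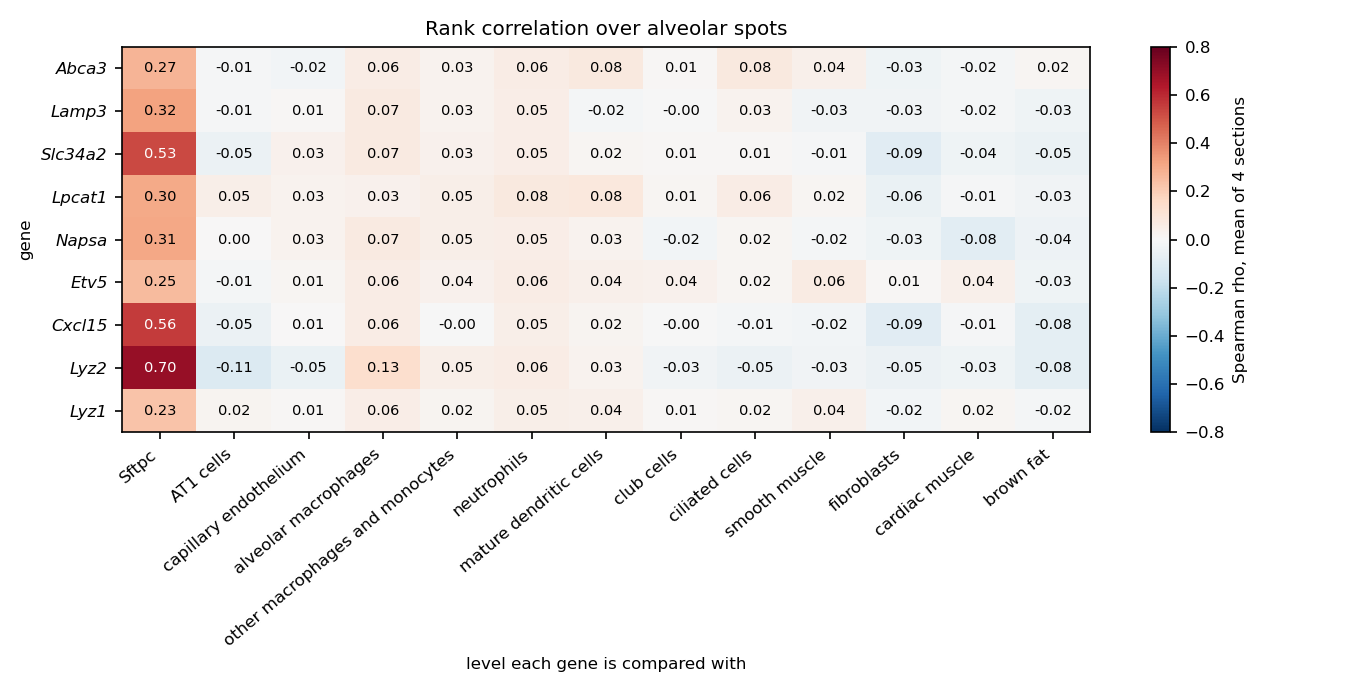
Spearman's rho over alveolar spots, as the mean of the 4 sections, of the 8 members and Lyz1 (rows) with Sftpc and with the summed level of 12 marker lists (columns). The Sftpc column holds 0.23 to 0.70, whereas the columns of other cell types hold -0.11 to 0.13.

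Spots outside the alveolar region in which 6 heart muscle genes reached 1% of the UMIs (cardiac muscle spots) served as background for the share of spots with a UMI. With 3000 UMIs per spot, Lyz2 had a UMI in every alveolar spot kept and in 99.0% to 100% of cardiac muscle spots, so its share does not separate them. Cxcl15 had one in 94.5% to 98.4% of alveolar and 44.7% to 73.5% of cardiac muscle spots. Abca3, Lpcat1 and Napsa were counted in 48.7% to 61.2% of alveolar spots and in 10.9% to 23.9% of cardiac muscle spots, tissue that should lack type 2 cells, with a median of 9846 to 36351 UMIs per spot before thinning. Without thinning, these 3 genes were counted in 73.6% to 86.6% of alveolar and 52.4% to 87.4% of cardiac muscle spots. In the NV female and V female, whose cardiac muscle spots were deeper than the alveolar ones, unthinned shares did not clearly separate the tissues. In the NV male, where median depth was similar (10038 alveolar and 9846 cardiac muscle UMIs), the shares were 82.7% to 84.2% and 52.4% to 56.5%. Thinning left out 67 (NV male), 38 (NV female), 199 (V male) and 193 (V female) shallower alveolar spots, and 26 cardiac muscle spots of the NV male.
The count of Etv5, Abca3, Lpcat1, Napsa and Lamp3 had a variance of 0.96 to 1.22 times its mean over thinned spots, where counting error alone gives 1. That ratio was 1.30 to 1.68 for Cxcl15, 1.31 to 1.57 for Slc34a2, 2.72 to 3.55 for Lyz2 and 9.32 to 12.1 for Sftpc.

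Between V and NV, 5 of the 8 members (Abca3, Lamp3, Lpcat1, Etv5 and Cxcl15) had lower levels over alveolar spots in both V mice than in both NV mice, and none was higher in both. Of all 14249 genes tested, 16.7% were lower in both V mice and 13.8% higher in both. No member passed edgeR's test, and neither did any other gene (0%, with 365 genes or 2.56% at an unadjusted p under 0.05). DESeq2's Wald test called 9 genes, limma 0, and edgeR 253 without the V male and 929 without the V female, and no member was among the calls of any setting. With 2 mice a group, an exact permutation test of a single gene cannot give a two-sided p below 0.33. In these spots fewer type 2 cells and less RNA per type 2 cell cannot be told apart.

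Cxcl15 differed most. NV levels were 1926 CPM (male) and 1726 CPM (female), and V levels were 1214 CPM (male) and 1137 CPM (female). Both V mice lay below both NV mice, and the gap between the groups exceeded the difference between the mice of either group. The NV mean was 1826 ± 142 CPM (SD, n = 2), and the V mean was 1176 ± 54.6 CPM (SD, n = 2). The log2 fold change was -0.62 (SE 0.17, edgeR unadjusted p = 0.0152, adjusted p = 0.99998), and the V level was 0.630 of the NV level in males and 0.659 in females.
Both low and high spots showed the lower level. In the 10th percentile of alveolar spots Cxcl15 stood at 874 and 672 CPM in NV and 496 and 449 CPM in V, and in the 90th percentile at 2820 and 2740 CPM in NV and 1969 and 1906 CPM in V. In each of the 5 quintiles of spots ordered by Sftpc, both V mice were below both NV mice. Per 100 UMIs of Sftpc, Cxcl15 had 5.75 and 6.10 UMIs in the NV male and female, and 3.37 and 4.23 in the V male and female.

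**Figure D4:**
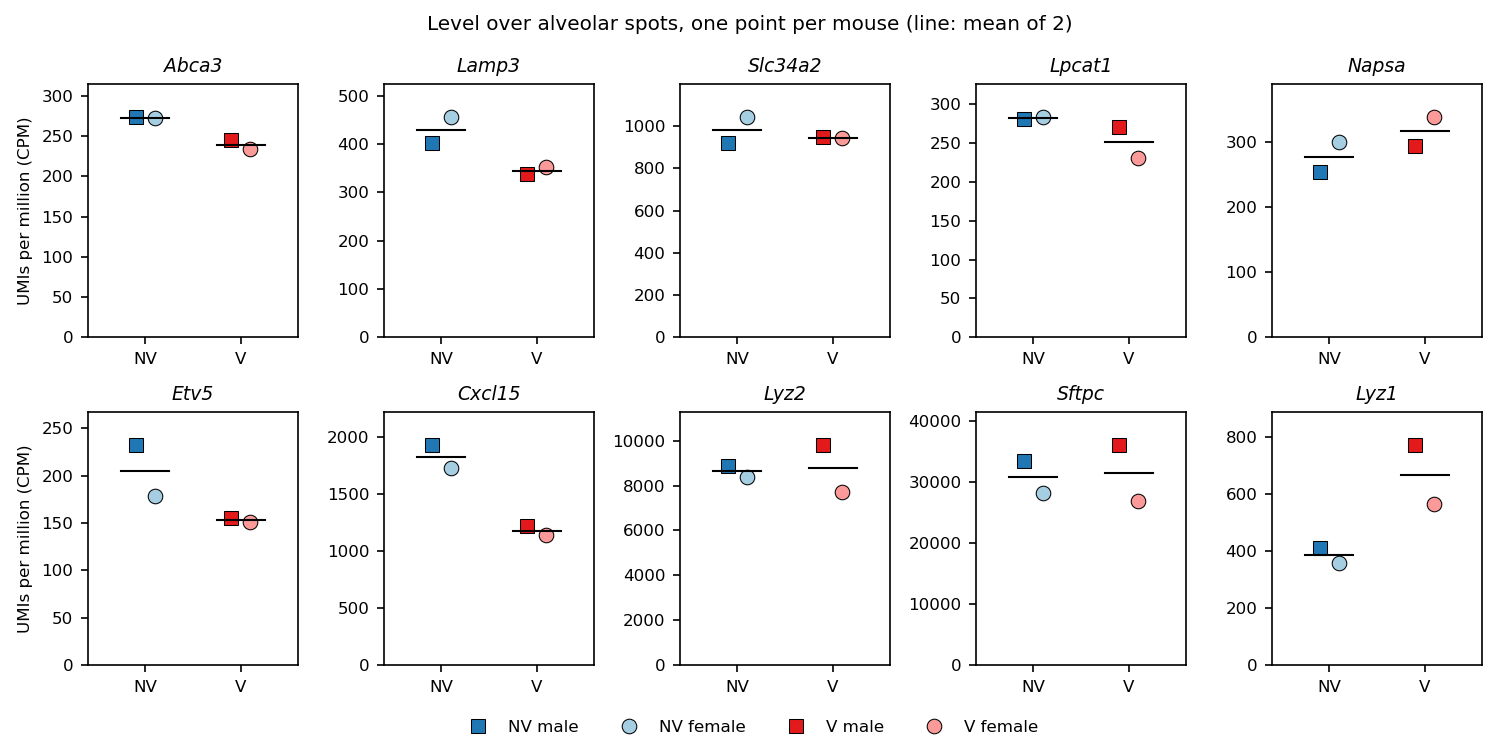
CPM over all alveolar spots for the 8 members, Sftpc and Lyz1, with a point per mouse (square male, circle female) and a line at the mean of the 2 mice of a group. For Cxcl15 the V points (1214 and 1137) lie below the NV points (1926 and 1726), and for Lyz1 they lie above.

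Etv5 levels were 232 CPM (male) and 178 CPM (female) in NV, and 155 CPM (male) and 151 CPM (female) in V. The V mice were close to each other and below both NV mice, of which the male was the higher. Its log2 fold change was -0.41 (SE 0.21, edgeR unadjusted p = 0.102, adjusted p = 0.99998).
At 3000 UMIs per spot, Etv5 was counted in 51.7% (NV male, 95% exact binomial interval 47.6% to 55.8%), 46.0% (NV female, 40.4% to 51.7%), 35.4% (V male, 32.9% to 38.0%) and 33.8% (V female, 31.4% to 36.3%) of alveolar spots. These intervals cover counting error only. Unthinned shares were 80.8%, 72.5%, 59.5% and 68.6%, and in cardiac muscle spots the thinned share was 20.4% (NV male), 15.2% (NV female) and 13.6% (V female), against 46.8%, 65.2% and 73.8% unthinned.

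The lamellar body genes differed less. Lamp3 had 402 and 455 CPM in the NV male and female, and 337 and 352 CPM in the V male and female. Both V mice were lower, with a log2 fold change of -0.30 (SE 0.18, edgeR unadjusted p = 0.152, adjusted p = 0.99998). The dendritic cell list that Lamp3 is also known from was lower in V as well, with a sum of 92.0 and 100.955 CPM in NV and 58.5 and 51.8 CPM in V, none of its 4 genes at 0 and 4 of 4 with a negative log2 fold change. Its part in the Lamp3 level was not tested.
Abca3 was nearly equal in the NV mice, with 273 CPM in each, and had 245 CPM (male) and 233 CPM (female) in V. The groups did not overlap, and the log2 fold change was -0.18 (SE 0.17). Lpcat1 had 281 and 283 CPM in NV, and 270 CPM (male) and 231 CPM (female) in V (log2 fold change -0.16, SE 0.18). For Lpcat1 the V male was nearly level with the NV mice.

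Slc34a2 had 920 and 1042 CPM in the NV male and female, and 947 and 944 CPM in the V male and female. The V mice lay between the NV mice, with a log2 fold change of -0.04 (SE 0.17). Napsa had 254 and 300 CPM in the NV mice, and 294 and 337 CPM in the V mice. Its V male fell between the NV mice, and the log2 fold change was 0.21 (SE 0.20).
Lyz2 had 8871 and 8396 CPM in the NV mice, and 9803 CPM (male) and 7731 CPM (female) in V. The V mice lay on either side of the NV mice (log2 fold change 0.03, SE 0.17). The neutrophil list summed to 185 and 253 CPM in NV, and 580 CPM (male) and 103 CPM (female) in V, with the V mice likewise on either side, and its part in the Lyz2 level was not tested. Sftpc did the same, with 33489 and 28272 CPM in NV, and 36069 CPM (male) and 26868 CPM (female) in V (0.04, SE 0.19).

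Lyz1, the copy of Lyz2, had 412 and 357 CPM in the NV male and female, and 772 and 564 CPM in the V male and female. Both V mice exceeded both NV mice, with a log2 fold change of 0.80 (SE 0.23, edgeR unadjusted p = 0.0157, adjusted p = 0.99998). The log2 fold change was 0.99 without the V female and 0.59 without the V male, each with 1 V mouse left.
At 3000 UMIs per spot Lyz1 was counted in 57.2% and 51.1% of alveolar spots of the NV male and female, and in 81.8% and 72.5% of those of the V male and female (87.0%, 80.2%, 93.8% and 89.7% unthinned). In cardiac muscle spots its share was 30.4% to 32.0%. Macrophages make lysozyme as well. The summed alveolar macrophage list was 318 and 520 CPM in NV and 630 and 651 CPM in V, with Marco at 16.2, 10.96, 54.5 and 30.8 CPM and Chil3 at 164, 351, 433 and 441 CPM in the order NV male, NV female, V male, V female. Of the 7 genes of this list, 5 had a positive and 2 a negative log2 fold change, from -0.07 (Mrc1) to 1.63 (Marco). The mean rho of Lyz1 with this list was 0.06 and with Sftpc 0.23, and the part of macrophages in the Lyz1 level was not tested.

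The make-up of the type 2 transcripts was read as the UMIs of each member in percent of the summed UMIs of the 7 members other than Lyz2, in which the summed level of the 7 cancels. This sum was 4289 and 4257 CPM in the NV male and female and 3464 and 3387 CPM in the V male and female, or on average 4273 ± 22.5 CPM (NV, SD, n = 2) and 3425 ± 54.2 CPM (V, SD, n = 2). The 4 surfactant protein genes summed to 41971 and 36201 CPM in NV and 45540 and 34568 CPM in V, where the groups overlapped.
Cxcl15 contributed 44.9% and 40.5% of the sum in the NV male and female, and 35.1% and 33.6% in the V male and female. Slc34a2 contributed 21.5% and 24.5% in NV, and 27.3% and 27.9% in V. Napsa contributed 5.92% and 7.05% in NV, and 8.50% and 9.96% in V.
For these 3 genes, and for Abca3 and Lpcat1 with smaller differences, the groups did not overlap (exact permutation test, two-sided p = 0.333, the smallest possible). Shares are tied to each other, so they were also taken of the sum without Cxcl15, an alternative chosen after the data had been seen. Slc34a2 (39.0% and 41.2% in NV, 42.1% and 42.0% in V) and Napsa (10.8% and 11.9%, 13.1% and 15.0%) were then still higher in both V mice. Lamp3 and Etv5 were lower in both, and Abca3 and Lpcat1 overlapped. With the 4 surfactant protein genes added to the full sum, the groups did not overlap for Cxcl15 and Etv5, lower in V, and overlapped for the other 5.

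**Figure D5:**
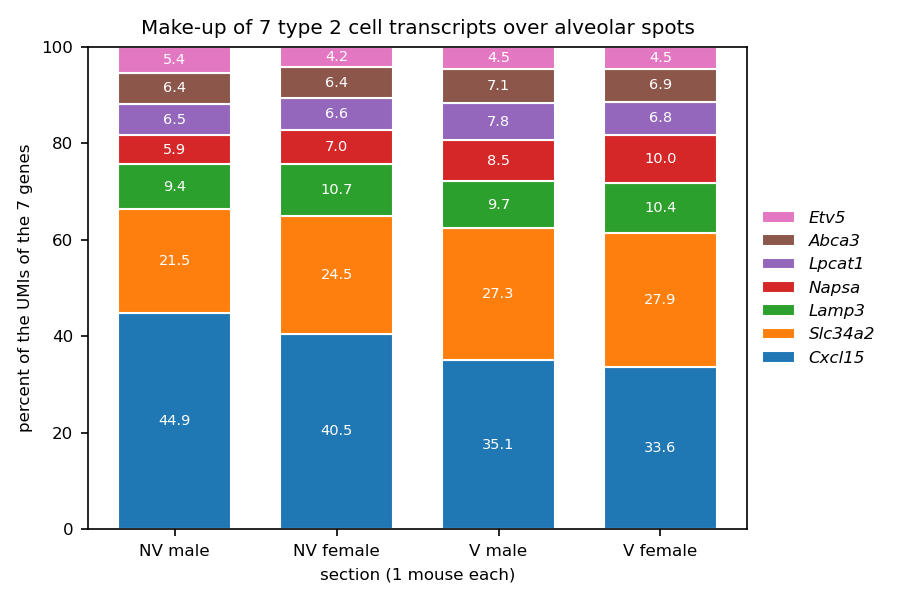
Stacked bars of the UMIs of 7 members in percent of their summed UMIs over the alveolar spots of each section, 1 mouse per bar. The Cxcl15 share is 44.9% and 40.5% in NV and 35.1% and 33.6% in V, and the Napsa share 5.92% and 7.05% in NV and 8.50% and 9.96% in V.

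Over whole sections, in which the share of alveolar tissue differed, no member was lower in both V mice (14.4% of 14570 genes were), and 1, Napsa, was higher in both (12.6% of genes were). Napsa had 210 and 200.8 CPM in the NV male and female and 294 and 228 CPM in the V male and female (log2 fold change 0.31, SE 0.20, edgeR adjusted p = 0.999743). Cxcl15 had 1562 and 1081 CPM in the NV male and female and 1214 and 763 CPM in the V male and female. Its V male exceeded its NV female, so the groups overlapped (log2 fold change -0.46, SE 0.34). edgeR called 0 of the 14570 genes (0%, 248 or 1.7% at an unadjusted p under 0.05), DESeq2 8 and limma 0. Without the V male edgeR called 21 genes and without the V female 811, with 0 members in either.

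Other genes of the surfactant pathway were read from lists of known function. Over alveolar spots 0 of the 44 genes in 6 such lists passed edgeR's test between V and NV. Among 10 other genes enriched in type 2 cells, 9 had a negative log2 fold change, as did 6851 of all 14249 genes tested (median -0.18, against 0.01 over all). Of these 10, Hc, Dram1, Ppp1r14c and Egfl6 were lower in both V mice, as were 16.7% of all genes. Egfl6, a secreted epidermal growth factor repeat protein, had 82.2 and 86.1 CPM in the NV mice and 56.2 and 58.2 CPM in the V mice (log2 fold change -0.54, SE 0.14). The surfactant protein genes had log2 fold changes of -0.08 to 0.22, and the type 2 cell factor Nkx2-1 -0.17 (SE 0.18).
The 12 lipid synthesis genes had a median log2 fold change of 0.02, with 7 positive and 5 negative, from -0.51 (Elovl1) to 0.63 (Fasn). Elovl1, an elongase of very long chain fatty acids, had 682 and 563 CPM in NV and 387 and 478 CPM in V. Scd1, a fatty acid desaturase, had 1973 and 3791 CPM in NV and 937 and 3366 CPM in V, so its groups overlapped. The 8 genes of lamellar body trafficking had a median log2 fold change of 0.04, with Rab38 and Ap3d1 not overlapping, in opposite directions.
Between regions, 4 of 4 surfactant protein genes and 9 of 10 other type 2 enriched genes were called higher in alveolar spots, as were 2 of 8 trafficking genes (Atp11a and Rab38), beside 19.5% of all genes. Of the 12 lipid synthesis genes, 3 were called higher and 6 lower, beside 19.5% and 23.1% of all genes, the latter including Scd1 and Fasn, which are also high in fat tissue.

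Markers of other cells in the alveolar spots were read from lists as well, and edgeR called 0 genes of any list between V and NV. The type 1 markers summed to 4357 and 4436 CPM in NV and 6813 and 5106 CPM in V, and 7 of 7 had a positive log2 fold change (median 0.48). Ager, the receptor for advanced glycation end products, stood at 1948 and 1908 CPM in NV and 3134 and 2474 CPM in V. These markers had also served to choose the spots. Spots chosen instead with 6 markers that include Sftpc and Sftpb gave a log2 fold change of -0.60 (SE 0.17) for Cxcl15. These 6 also include markers of the first rule, and most spots were the same. Of the alveolar spots, 648 of 663 (NV male), 336 of 353 (NV female), 1562 of 1562 (V male) and 1585 of 1654 (V female) were in both. The 2 values are therefore not independent. The club cell list summed to 311 (V male) to 11545 CPM (NV male), with its groups overlapping. The cardiac muscle list summed to 2927 and 2102 CPM in the NV male and female, and 18.2 and 1881 CPM in the V male and female. Its sum was thus lower in both V mice, as were 4 of its 6 genes, beside 16.7% of all genes. The part of both lists in the levels of the members was not tested. Cxcl15 stood at 1214 CPM in the V male, whose spots held the least of both, and at 1137 CPM in the V female.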

How the data were processed

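RNA of 4 Visium sections (1 per mouse, 2 V and 2 NV) was counted by the authors with Space Ranger against mm10, and filtered matrices of raw UMI counts per gene and spot were deposited. The authors' later normalization in Seurat is not part of these counts. Counts were summed per mouse over all spots, alveolar spots or other spots, with no filter on spots and no doublet call, as a spot may hold several cells. Sums were tested with edgeR 4.0.16 (quasi-likelihood test, TMM, filterByExpr) in R 4.3.3, with DESeq2 1.42.0 and limma 3.58.1 (log2 CPM, pseudocount 1) as alternatives, and p-values were adjusted over all genes by Benjamini-Hochberg. Alveolar spots had at least 2882 CPM of the 12 markers. Each spot was read at 3000 UMIs for shares. Sums over alveolar spots held 3833392 (NV female) to 20065434 UMIs (V female), so depth limits precision most in the NV female. The 8 members, the lists and the region rule were chosen with earlier results of these data known. Named are the members, Sftpc, Lyz1, up to 3 of the most abundant genes of a list, list genes that passed and the 10 genes closest to Sftpc. Ap3d1, Cldn4, Marco and Ppp1r14c were picked after their values were seen. The edgeR step was tested on simulated data before use, with 200 genes above the median level set to differ. Each was given a log2 fold change of 2 in either direction. With a biological coefficient of variation near that of these data, edgeR called 77.5% of the 200 over alveolar spots (0.304). It called 11.5% over whole sections (0.394) and 100% between regions (0.115). At a coefficient of 0.224 these values were 99%, 100% and 100%. Differences as small as those of the members between V and NV were not simulated, so these values do not tell how often such differences would be called. Gene positions are from GENCODE vM21, promoters from RefSeq.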

Additional observations from a re-analysis of the deposited data

Results flagged for a closer look

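Some members differed in opposite directions between V and NV in males and in females, with 1 mouse per group and sex, so the difference between the sexes was not tested. Over alveolar spots, Slc34a2 in V was 1.03 times the NV level in males and 0.906 times in females, and Lyz2 1.1 times in males and 0.921 times in females. Over whole sections the ratios in males and females were 1.08 and 0.883 for Abca3, 1.03 and 0.834 for Lamp3, 1.26 and 0.964 for Slc34a2, 1.18 and 0.875 for Lpcat1, and 1.34 and 0.965 for Lyz2. In all of these V exceeded NV in the males. The section of the V male was 99.8% alveolar, against 74.6% to 80.6% in the others. Its alveolar spots also held less of the cardiac muscle list, with 18.2 CPM against 1881 to 2927 CPM in the others. The part of these differences in the ratios, over alveolar spots or whole sections, was not tested.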

How the results depend on the processing

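All 8 members were called higher in alveolar than in other spots under every alternative run, with a median log2 fold change of 0.80 at the 100% marker level in place of 1.57, while the number of genes called was 9076 without TMM, 3924 with no replicate block, and 4424 to 5940 with a mouse left out. Between V and NV, DESeq2 called 9 genes over alveolar spots and 8 over whole sections, and leaving out a mouse gave 0 to 929 and 0 to 811, with no member among them, and the cause was not tested. The labels' replicate numbers mark sex (correlation of same-numbered deviations 0.105 over alveolar spots, 0.377 over whole sections), and with the replicate block 0 genes were called in either (442 and 413 at an unadjusted p under 0.05). Cxcl15 stayed lower in V under every alternative run over alveolar spots, from -0.73 to -0.52 (log2), with an unadjusted p of 0.0742 at the 25% marker level and 0.0999 without the NV male. Small differences changed sign over alveolar spots for Slc34a2 (0.0407 with limma, 0.0627 at the 100% marker level, -0.101 to 0.0268 with a mouse left out), Lyz2 (-0.12 to 0.17) and Sftpc (-0.16 to 0.21). Over whole sections Lpcat1 moved to -0.0242 in thinned sections and -0.00349 with the replicate block, and leaving out a mouse gave -0.243 to 0.0919 for Abca3, -0.596 to 0.0750 for Etv5, -0.28 to 0.24 for Lpcat1, -0.18 to 0.45 for Lyz2, -0.25 to 0.55 for Sftpc and -0.0763 to 0.288 for Slc34a2. The median of the members' mean rho with Sftpc, 0.317, was 0.206 at 3000 and 0.123 at 1000 UMIs per spot, 0.445 over all spots and 0.302 to 0.353 with a section left out. With surfactant protein genes in the sum, 2 shares in place of 5 did not overlap. V minus NV became -0.0743 percentage points for Abca3, -0.0718 for Slc34a2 and -0.0723 for Lpcat1. Without Cxcl15 in the sum, chosen after the data were seen, it became -0.523 for Abca3 and -0.376 for Lpcat1.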

Other observations

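Genes of the transitional alveolar state, through which type 2 cells pass on the way to type 1 cells, had positive log2 fold changes between V and NV over alveolar spots in 5 of 5 genes tested (median 0.36, against 0.01 over all genes, of which 7398 of 14249 were positive), and 0 passed edgeR's test. Krt19, a keratin of this state, had 117 CPM (male) and 126 CPM (female) in NV, and 181 CPM (male) and 199 CPM (female) in V, so that both V mice lay above both NV mice. In the mature dendritic cell list, Ccr7, the receptor that guides these cells to lymph nodes, stood at 33.0 and 37.0 CPM in the NV male and female, and 16.6 and 14.9 CPM in the V male and female, with an edgeR unadjusted p = 0.000815 and an adjusted p = 0.99998.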
